A study of Mus musculus with 6 samples.

Results

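The collagens and their partners in the extracellular matrix were examined in livers of 2 substrains of the albino Balb/c mouse. The set held every measured gene whose symbol has the collagen form (Col, a number, the letter a, a number), 44 genes, and 14 further matrix genes from a list of 16. These 58 genes were taken from 22180 genes tested. Of the list, Fbn1 and Loxl2 gave no member, because a gene entered only through a probe set whose single symbol was its own, and the probe sets of Loxl2 carried a second symbol. Liver RNA came from male mice, 3 of Balb/c and 3 of Balb/cBy, each on its own array, all 20 weeks old. Both groups had eaten a high-fat diet, with 58% of energy as fat, for 12 weeks from an age of 8 weeks. Balb/cBy mice are known for a deletion in Acads, a gene of fatty acid oxidation. Arrays within a group are biological replicates by their labels, and animals on another diet were not analysed here.

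Collagens are built from 3 chains that wind into a triple helix. Fibrillar collagens form the cables that accumulate in a scarred liver, type IV collagen forms the mesh of basement membranes, and type VI collagen forms fine beaded filaments around cells. Small leucine-rich proteoglycans such as lumican and decorin bind the surface of fibrils, and decorin also binds the growth factor TGF-beta. In the liver most of these proteins come from hepatic stellate cells and portal fibroblasts, and a stellate cell that turns into a contractile myofibroblast takes up the smooth muscle genes Acta2 and Tagln.

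Values are log2 levels per probe set, and each difference is Balb/cBy minus Balb/c on that scale, with its moderated standard error (SE). A level is the mean ± SD of 3 arrays, and levels of different probe sets were not set against each other. The livers carried hepatocyte RNA in every array, with albumin, Alb, between 14.16 and 14.22 and transthyretin, Ttr, between 13.84 and 13.98. The median of an array was 7.66 to 7.74, any pair of arrays correlated at 0.972 to 0.988 across probe sets, and the number of arrays limits the precision. In RNA of whole liver, fewer cells of a type and less RNA per cell cannot be told apart.

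The proteoglycans lumican and decorin stood above all Balb/c livers in every Balb/cBy liver, with differences of the group means of 0.53 and 0.48. For decorin the groups nearly met, at 12.08 in Balb/c replicate 1 and 12.12 in Balb/cBy replicate 1. The major fibrillar collagens Col1a1, Col1a2 and Col3a1 had differences near 0. After limma and adjustment over all genes, 0 of 58 matrix genes passed an adjusted p of 0.05, as did 0% of all genes. Before adjustment, 3 matrix genes had a p under 0.05, Lum, Dcn and Tagln, all with higher values in Balb/cBy, where 3.76% of all genes reached it in either direction and 2.59% with higher values in Balb/cBy. The groups did not overlap with Balb/cBy higher for 8 matrix genes, against 4.32% of all genes, and with Balb/cBy lower for 2, against 3.51% of all genes. A difference above 0 was found for 30 of the 58, against 49.1% of all genes, and the median difference was 0.0085, against -0.0028 over all genes. Within the set, 12 of the 14 genes that are not collagens had a difference above 0, with a median of 0.17, and 18 of the 44 collagens did, with a median of -0.03. Among genes at or above the median gene, 25 of 40 members had a difference above 0, against 56.9% of all genes so filtered. The part of signal level in the contrast between collagens and the other genes was not tested. Most differences were small: 50 of 58 were under 0.2 in size and 5 were at least 0.3.

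**Figure D1:**
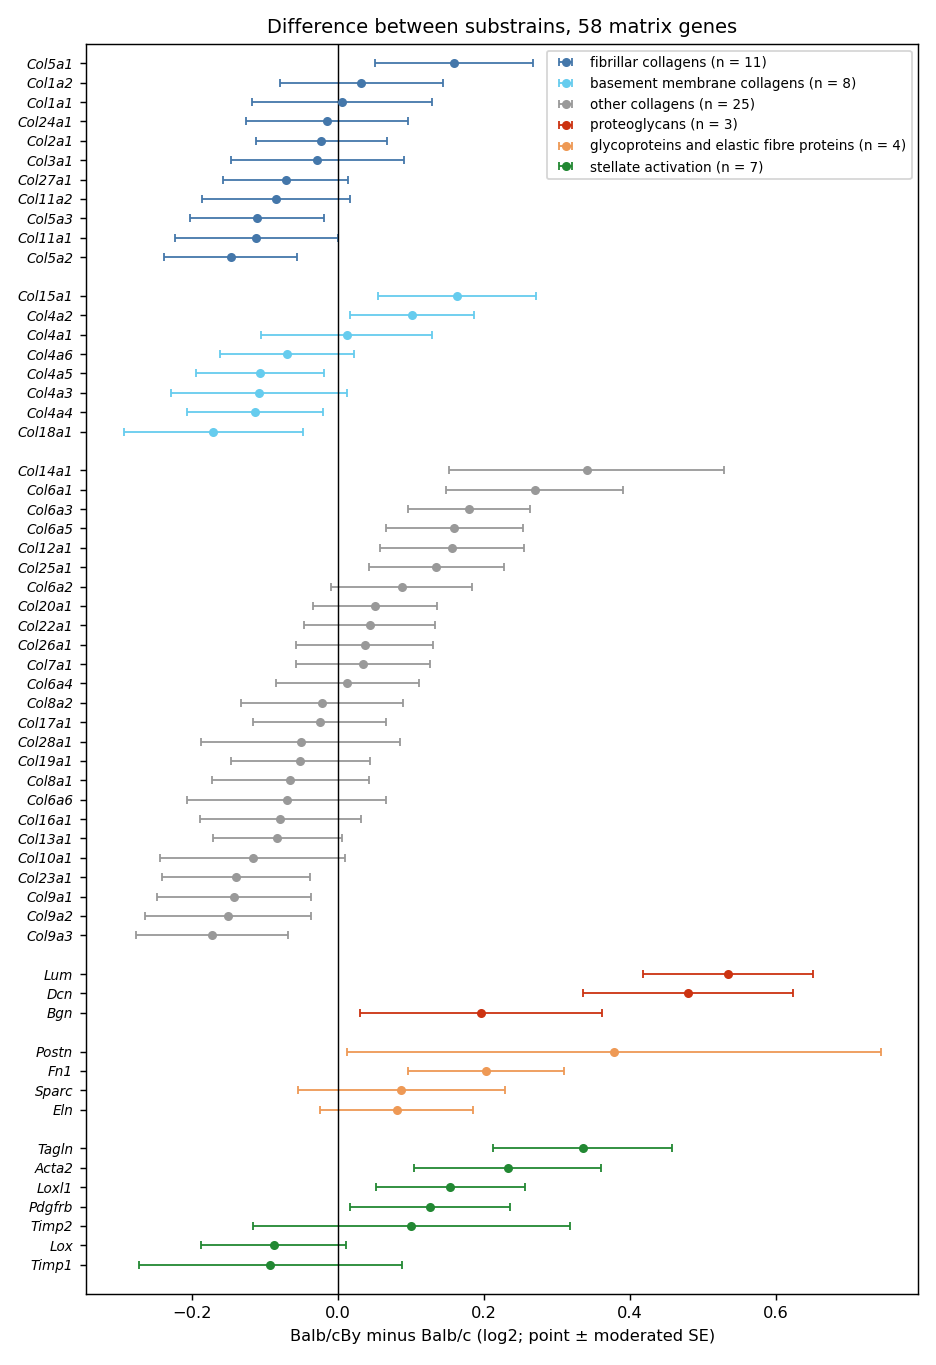
Difference between Balb/cBy and Balb/c (log2, horizontal axis) for each of the 58 matrix genes, sorted within 6 classes; points are limma estimates from 3 arrays a group and bars are the moderated SE. Lum and Dcn lie farthest to the right, at 0.53 and 0.48, and most collagens lie within 0.2 of 0.

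Lumican, Lum, a keratan sulfate proteoglycan that sets the spacing of collagen fibrils, was measured at 8.12, 7.83 and 7.78 in the Balb/c livers and at 8.34, 8.51 and 8.48 in the Balb/cBy livers. All 3 Balb/cBy values lay above all 3 Balb/c values. The means were 7.91 ± 0.18 and 8.44 ± 0.094 (SD, n = 3 each), a difference of 0.53 (SE 0.12) or 1.45-fold. Its adjusted p in limma was 0.744, the lowest of the set, and over the alternatives it was never under 0.385. An exact two-sided permutation test gave p = 0.1, and 3 arrays against 3 cannot give a smaller value. Leaving out any 1 array gave a difference between 0.47 and 0.64.

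Decorin, Dcn, was measured at 12.08, 11.62 and 11.76 in Balb/c and at 12.12, 12.31 and 12.46 in Balb/cBy. The groups did not overlap, but Balb/c replicate 1 and Balb/cBy replicate 1 lay close together. The difference was 0.48 (SE 0.14), or 1.39-fold, with an adjusted p of 0.999 in limma. Lum and Dcn are next to each other among the protein-coding genes of the mouse reference, and both were read by 1 probe set each. Keratocan, Kera, and epiphycan, Epyc, of the same proteoglycan family had differences of -0.14 (SE 0.14) and -0.12 (SE 0.14), which shrank to -0.02 and 0.0008 on dropping Balb/cBy replicate 2.

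Biglycan, Bgn, the third proteoglycan of the set, was measured at 12.11, 11.94 and 11.55 in Balb/c and at 11.87, 12.01 and 12.30 in Balb/cBy. These groups overlapped, with the lowest value in Balb/c replicate 3 and the highest in Balb/cBy replicate 3. The difference was 0.20 (SE 0.17), but 0.04 when Balb/c replicate 3 was left out and 0.08 when Balb/cBy replicate 3 was. The second probe set of Bgn differed by 0.18. The 3 proteoglycans together had a median difference of 0.48. Of the 12 other measured members of the small leucine-rich proteoglycan family, 7 had a difference above 0 and 0 passed the threshold, with a median of 0.04. Osteomodulin, Omd, differed by -0.42 (SE 0.15) and opticin, Optc, by 0.16 (SE 0.10), or 0.10 on dropping Balb/cBy replicate 1.

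**Figure D2:**
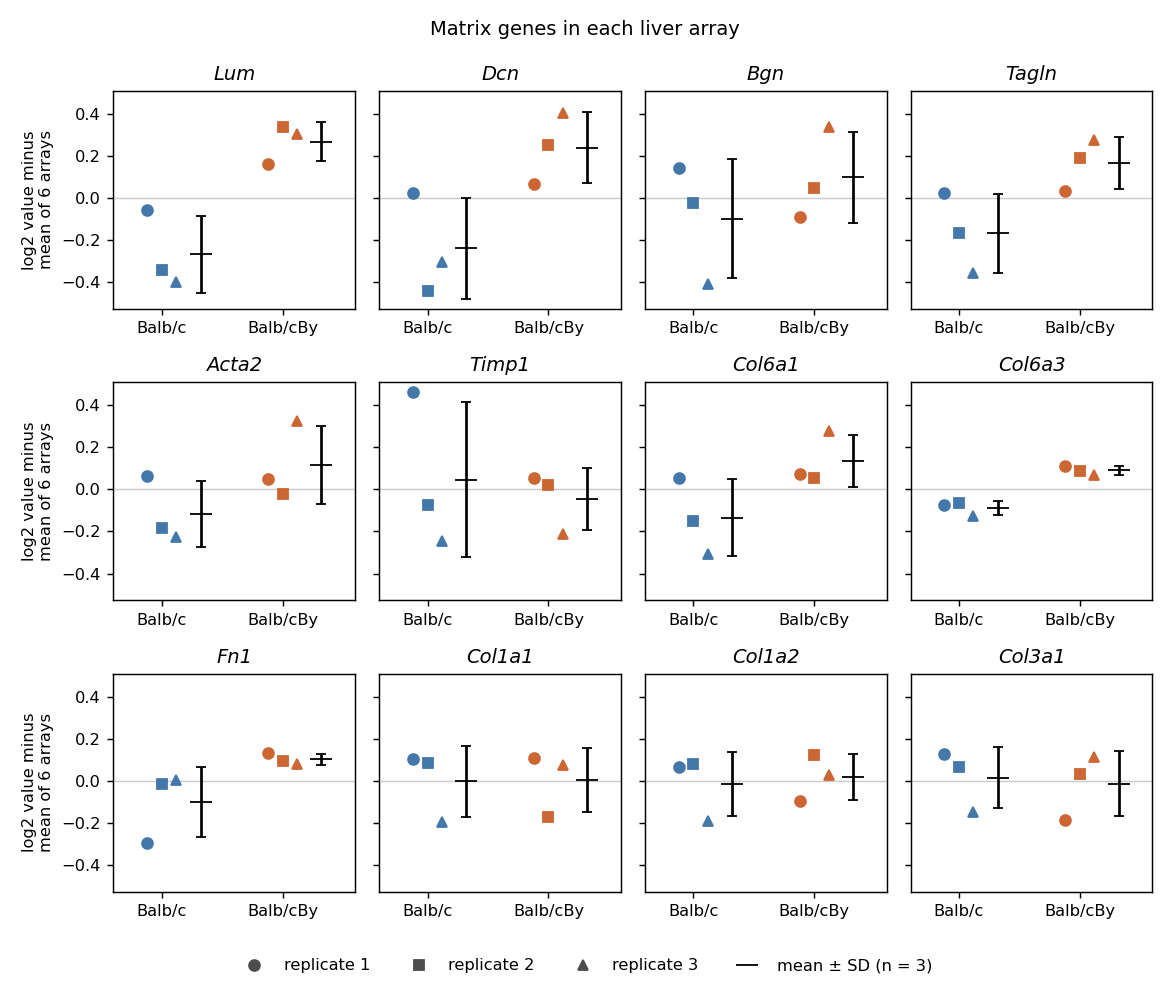
Values of 12 matrix genes in each array, as log2 value minus the gene's mean over the 6 arrays (vertical axis), with Balb/c in blue and Balb/cBy in orange; symbols mark the replicate number and black bars the mean ± SD of 3 arrays. The groups are separate for Lum, Dcn, Tagln, Col6a1, Col6a3 and Fn1, and they overlap for Col1a1, Col1a2 and Col3a1.

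The fibrillar collagens showed no shift of this size. Col1a1, the main chain of type I collagen, was measured at 9.09, 9.07 and 8.79 in Balb/c and at 9.09, 8.82 and 9.06 in Balb/cBy. Each group held 2 higher arrays and 1 lower one, and the means were 8.99 ± 0.17 and 8.99 ± 0.15 (SD, n = 3 each). The difference was 0.0053 (SE 0.12), with a 95% confidence interval from -0.28 to 0.29, or 0.825-fold to 1.22-fold. Its partner chain Col1a2 was measured at 8.84, 8.85 and 8.58 in Balb/c and at 8.67, 8.89 and 8.80 in Balb/cBy, a difference of 0.03 (SE 0.11, interval -0.23 to 0.29). Its second probe set differed by 0.08. Col3a1, the chain of type III collagen, was measured at 8.97, 8.91 and 8.70 in Balb/c and at 8.66, 8.88 and 8.96 in Balb/cBy, a difference of -0.03 (SE 0.12, interval -0.30 to 0.24). The signs of these 3 differences turned when single arrays were left out. The intervals are not adjusted for the number of genes, and in these 3 genes they end below the estimates for Lum and Dcn, 0.53 and 0.48. Those estimates have 95% intervals of their own, from 0.27 to 0.80 for Lum and from 0.15 to 0.81 for Dcn. The contrast between these genes was not tested.

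The 11 fibrillar collagens had a median difference of -0.03, with 3 above 0 and 8 below, and the median was -0.09 without Balb/c replicate 3. Col5a2, a chain of type V collagen, which starts fibrils, was measured at 8.17, 8.06 and 8.10 in Balb/c and at 8.001, 7.87 and 8.01 in Balb/cBy. Its groups did not overlap, with a difference of -0.15 (SE 0.09). Col5a1, the other main chain of type V collagen, differed by 0.16 (SE 0.11) at the probe set used, with values of 8.38, 8.43 and 8.36 in Balb/c and 8.53, 8.72 and 8.38 in Balb/cBy. Its second probe set differed by -0.14, so that the direction of Col5a1 depends on the probe set. At the probe set used it was 0.07 on dropping Balb/cBy replicate 2 and 0.24 on dropping Balb/cBy replicate 3. The remaining fibrillar collagens, Col2a1, Col5a3, Col11a1, Col11a2, Col24a1 and Col27a1, had differences from -0.11 to -0.02, all with overlapping groups.

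Basement membrane collagens were 8 genes, with a median difference of -0.09, which was -0.03 on dropping Balb/c replicate 2 and -0.04 on dropping Balb/cBy replicate 2. Col4a1 was measured at 8.46, 8.75 and 8.40 in Balb/c and at 8.52, 8.49 and 8.64 in Balb/cBy, and Col4a2 at 8.21, 8.25 and 8.20 against 8.29, 8.29 and 8.37. These chains form the common type IV collagen of vessels and share their start region. Only Col4a2 of the class had groups without overlap, by a difference of 0.10 (SE 0.09), while Col4a1 differed by 0.01 (SE 0.12). The chains Col4a3, Col4a4, Col4a5 and Col4a6, known from kidney and other specialised membranes, had differences from -0.11 to -0.07. Col18a1, which carries endostatin and is made by hepatocytes, was measured at 9.60, 9.93 and 9.94 in Balb/c and at 9.51, 9.71 and 9.74 in Balb/cBy, a difference of -0.17 (SE 0.12). It was -0.28 on dropping Balb/c replicate 1, -0.10 on dropping Balb/cBy replicate 1 and -0.035 with array weights. Col15a1, a related collagen, differed by 0.16 (SE 0.11), or 0.0979 when Balb/cBy replicate 1 was left out, and the groups of both overlapped. Of 14 measured laminins and other basement membrane proteins, 9 had a difference above 0 and 0 passed, with a median of 0.02, and Lamb1 differed by 0.24 (SE 0.12; 0.13 when Balb/c replicate 3 was left out) and Lama2 by 0.16 (SE 0.09).

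Among the 25 other collagens, Col14a1 and the type VI chains Col6a1 and Col6a3 had the largest differences above 0. Col6a1 was measured at 9.30, 9.09 and 8.93 in Balb/c and at 9.31, 9.30 and 9.52 in Balb/cBy. The groups were separated by a narrow gap, between Balb/c replicate 1 and Balb/cBy replicate 2. The difference was 0.27 (SE 0.12). At the second probe set of Col6a1 the difference was 0.12 and the groups overlapped. Its values were 7.07, 6.62 and 6.48 in Balb/c and 6.92, 6.58 and 7.03 in Balb/cBy. Col6a3 was measured at 8.36, 8.37 and 8.31 in Balb/c and at 8.55, 8.53 and 8.51 in Balb/cBy. Its arrays lay very close within each group, and the difference of 0.18 (SE 0.08) ranged from 0.16 to 0.19 when single arrays were left out. Col6a2, the third chain of the common type VI trimer, differed by 0.09 (SE 0.10), Col6a5 by 0.16 (SE 0.09), Col6a4 by 0.01 and Col6a6 by -0.07, and the groups of these 4 overlapped. Col6a2 was at 0.03 on dropping Balb/cBy replicate 3, Col6a4 was at -0.04 on dropping Balb/c replicate 3, and Col6a6 was at 0.07 on dropping Balb/cBy replicate 2. In all, 5 of 6 type VI genes had a difference above 0, with a median of 0.12, and 4 to 6 of them did when single arrays were left out.

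The promoters of Col6a1 and Col6a3, with groups apart at the probe sets used, and of Col1a2, with overlapping groups, are shown to put the DNA upstream of these genes beside their values. Each is the run of 250 bases before the annotated start of the gene in RefSeq, build GRCm38.p6, read 5′ to 3′ on the strand of the gene. For Col6a1 this is chr10:76726045-76726294 on the minus strand, for Col6a3 chr1:90843972-90844221 on the minus strand, and for Col1a2 chr6:4505368-4505617 on the plus strand. Capitals mark matches, on either strand, to the CCAAT box, to the TATA box in the form TATAAA, or to the motif TGANTCA, the core bound by AP-1.
Col6a1: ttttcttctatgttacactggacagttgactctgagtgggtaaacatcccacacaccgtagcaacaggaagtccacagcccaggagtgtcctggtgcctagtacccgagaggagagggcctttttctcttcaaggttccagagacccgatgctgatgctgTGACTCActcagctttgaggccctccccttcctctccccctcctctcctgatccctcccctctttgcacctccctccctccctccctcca
Col6a3: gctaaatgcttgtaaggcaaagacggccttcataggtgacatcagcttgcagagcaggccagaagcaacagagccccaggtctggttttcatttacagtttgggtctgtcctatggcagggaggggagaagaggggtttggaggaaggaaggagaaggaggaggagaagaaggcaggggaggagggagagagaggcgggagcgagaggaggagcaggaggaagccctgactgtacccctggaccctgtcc
Col1a2: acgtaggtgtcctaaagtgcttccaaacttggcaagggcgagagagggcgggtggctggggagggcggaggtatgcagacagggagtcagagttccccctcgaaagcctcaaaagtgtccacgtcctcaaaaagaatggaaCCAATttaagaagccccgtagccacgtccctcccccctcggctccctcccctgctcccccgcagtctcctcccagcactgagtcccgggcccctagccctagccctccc
TGANTCA stands 90 bases before the start of Col6a1, and CCAAT 109 bases before that of Col1a2, while the Col6a3 window holds none of these motifs. The table held a window for 41 of the 58 genes, and that of Col6a1 was the 1 with TGANTCA, which 6.75% of all 32851 windows of this length contain. CCAAT was found for 15 of the 41 genes and in 33.8% of all windows, and TATAAA for 6 of the 41 and in 12.4%. These matches are a description of letters and not of bound sites. Lum, Dcn, Col1a1 and Tagln had no entry.

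Col14a1, which decorates fibrils, was measured at 9.90, 9.53 and 9.43 in Balb/c and at 9.60, 10.01 and 10.27 in Balb/cBy. Both groups were widely spread and overlapped, with a difference of 0.34 (SE 0.19), which became 0.19 on dropping Balb/cBy replicate 3 but 0.52 on dropping Balb/cBy replicate 1. Col25a1, a transmembrane collagen, had separate groups, at 7.92, 7.97 and 7.93 against 8.03, 8.19 and 8.02, a difference of 0.13 (SE 0.09), or 0.08 on dropping Balb/cBy replicate 2. Col9a3, a chain of the cartilage collagen IX, was the 1 gene of this class with separate groups and lower values in Balb/cBy, at 8.13, 8.07 and 8.13 against 8.02, 7.76 and 8.04, a difference of -0.17 (SE 0.10). Dropping Balb/cBy replicate 2, its lowest array, gave -0.08. A filter at the mean of the median gene, 8.03, left out both Col25a1 and Col9a3. The other chains of type IX, Col9a1 and Col9a2, differed by -0.14 and -0.15 with overlapping groups, and by -0.06 each when Balb/c replicate 2 (Col9a1) or Balb/cBy replicate 2 (Col9a2) was left out. The remaining 14 collagens of the class all had overlapping groups, with differences from -0.14 for Col23a1, a transmembrane collagen, to 0.16 for Col12a1, which sits on fibrils as Col14a1 does. Col23a1 was at -0.06 on dropping Balb/cBy replicate 3, and Col12a1 at 0.0987 on dropping Balb/c replicate 3. Of the 25 genes, 12 had a difference above 0, and the median was -0.02.

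Neighbouring genes of the set can be compared through the gene order of the reference. Among the 58 genes there were 9 pairs of adjacent protein-coding genes, and in 8 of them both differences had the same sign, as did 51.7% of 17254 adjacent pairs over all genes tested. Some of the equal signs rest on differences near 0, since Col4a1, Col6a4 and Col3a1 each changed sign when single arrays were left out. The pair with the opposite signs was Col6a6 and Col6a5. Col3a1 and Col5a2 differed by -0.03 and -0.15, Col4a3 and Col4a4 by -0.11 each, and Col6a1 and Col6a2 by 0.27 and 0.09. The pairs share genes and arrays, and only Lum and Dcn reached 0.4 on both sides.

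All 4 measured glycoproteins and elastic fibre proteins had a difference above 0 with all arrays, with a median of 0.14, which was 0.05 on dropping Balb/cBy replicate 3. Fibronectin, Fn1, which hepatocytes secrete into plasma and other cells lay down in the matrix, was measured at 12.78, 13.06 and 13.08 in Balb/c and at 13.21, 13.17 and 13.15 in Balb/cBy. The groups did not overlap, and Balb/c replicate 1 lay below the others. The difference was 0.20 (SE 0.11), and 0.11 without that array. Periostin, Postn, a matricellular protein of remodelling tissue, was measured at 8.97, 7.87 and 8.09 in Balb/c and at 8.06, 8.63 and 9.38 in Balb/cBy. It varied most of the 58 genes, with 1.51 between its highest and lowest array, and the groups overlapped. Its difference of 0.38 (SE 0.37) ranged from 0.03 to 0.71 when single arrays were left out. The lowest values came on dropping Balb/cBy replicate 3 (0.03) or Balb/c replicate 2 (0.16), and the highest on dropping replicate 1 of Balb/cBy (0.69) or of Balb/c (0.71). Sparc, a collagen-binding protein, differed by 0.09 (SE 0.14) and elastin, Eln, by 0.08 (SE 0.10). Sparc turned to -0.04 on dropping Balb/c replicate 3 and was at 0.0006 on dropping Balb/cBy replicate 3, and Eln was at 0.0061 on dropping Balb/c replicate 2. Of 11 other measured elastic fibre proteins 7 had a difference above 0 and 0 passed, with a median of 0.02, with Efemp1 at 0.43 (SE 0.19) and Fbln5 at 0.35 (SE 0.20; 0.15 when Balb/cBy replicate 3 was left out).

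Genes tied to stellate cell activation were 7, of which 5 had a difference above 0, with a median of 0.13. The median was 0.06 on dropping Balb/c replicate 3, 0.08 on dropping Balb/cBy replicate 3 and 0.20 on dropping Balb/cBy replicate 1. Tagln, the actin-binding protein transgelin, was measured at 8.50, 8.31 and 8.12 in Balb/c and at 8.51, 8.67 and 8.76 in Balb/cBy. The groups were only just apart, since Balb/c replicate 1 and Balb/cBy replicate 1 nearly met. The difference was 0.34 (SE 0.12), or 1.26-fold, with an adjusted p of 0.999 in limma. Acta2, the smooth muscle actin of myofibroblasts, was measured at 9.44, 9.19 and 9.15 in Balb/c and at 9.43, 9.36 and 9.71 in Balb/cBy. Its groups overlapped, and the difference of 0.23 (SE 0.13) was 0.13 without Balb/cBy replicate 3. The PDGF receptor Pdgfrb, which drives stellate cell growth, differed by 0.13 (SE 0.11), or by 0.06 on dropping Balb/c replicate 3 or Balb/cBy replicate 1.

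The enzymes and inhibitors of this class gave both signs. Timp1, an inhibitor of matrix metalloproteinases, was measured at 8.34, 7.80 and 7.63 in Balb/c and at 7.93, 7.90 and 7.66 in Balb/cBy. Its highest and lowest values were both in Balb/c, and the difference of -0.09 (SE 0.18) was 0.11 without Balb/c replicate 1. Timp2 differed by 0.10 (SE 0.22), the crosslinking enzyme Lox by -0.09 (SE 0.10) and its relative Loxl1 by 0.15 (SE 0.10), all with overlapping groups. Timp2 turned to -0.08 when Balb/c replicate 3 was left out, and to -0.05 when Balb/cBy replicate 3 was. Loxl1 was at 0.08 on dropping Balb/cBy replicate 3, and Lox at -0.02 on dropping Balb/cBy replicate 2.

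Particular livers stood out across the set. Balb/c replicate 3 held the lowest of the 6 values for 27 of the 58 genes (46.6%), while it did so for 19.4% of all genes. Among these 27 were Lum, Bgn, Tagln, Acta2, Col1a1, Col1a2 and 5 of the 6 type VI genes. Balb/cBy replicate 3 held the highest value for 13 of the 58 (22.4%), against 8.86% of all genes, among them Dcn, Bgn, Postn, Tagln, Acta2, Col6a1 and Col14a1. Without Balb/c replicate 3 a difference above 0 was found for 24 of the 58 genes, against 48.2% of all genes, and for 10 of the 14 that are not collagens. The spread within groups was a median SD of 0.12 over the 58 genes and 0.14 over all genes.

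**Figure D3:**
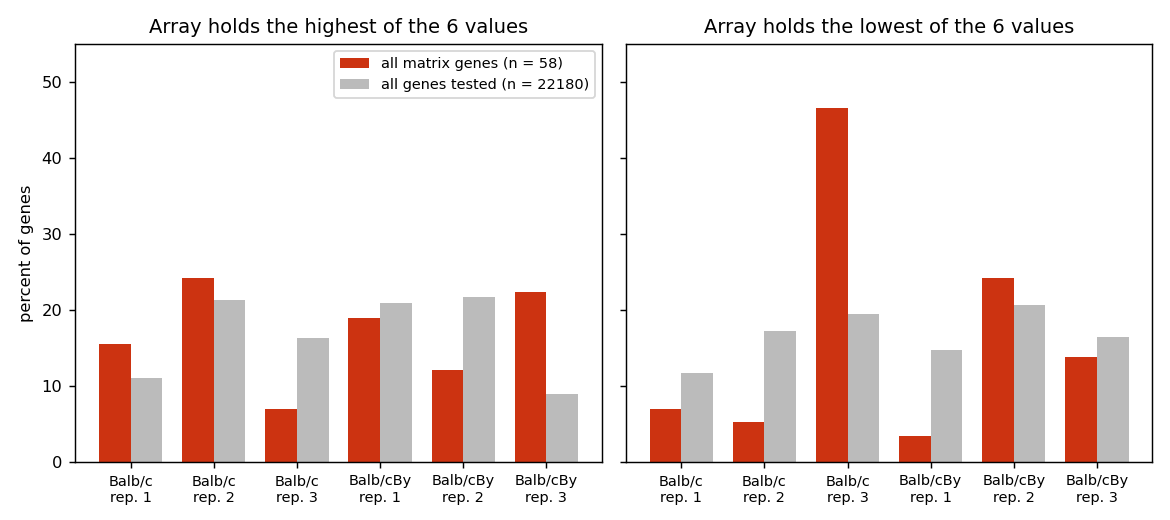
Percent of genes (vertical axis) for which each of the 6 arrays (horizontal axis) held the highest value (left) or the lowest value (right), for the 58 matrix genes in red and all 22180 genes in grey. Balb/c replicate 3 holds the lowest value for 46.6% of the matrix genes and 19.4% of all genes.

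Among the gene lists read below, those of matrix degradation, collagen receptors and portal fibroblast markers had mean levels separate between the groups. The mean level of a class in an array, taken after subtracting the mean of each gene over the 6 arrays, was separate for the proteoglycans alone of the 6 classes. It was 0.04, -0.27 and -0.37 in the Balb/c livers and 0.05, 0.21 and 0.35 in the Balb/cBy livers, so that replicate 1 of both groups nearly met. The stellate activation class stood at 0.13, -0.06 and -0.23 in Balb/c and at 0.0069, 0.02 and 0.14 in Balb/cBy. The fibrillar collagens stood at 0.05, 0.08 and -0.07 in Balb/c and at 0.0093, -0.05 and -0.01 in Balb/cBy, a narrower range.

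**Figure D4:**
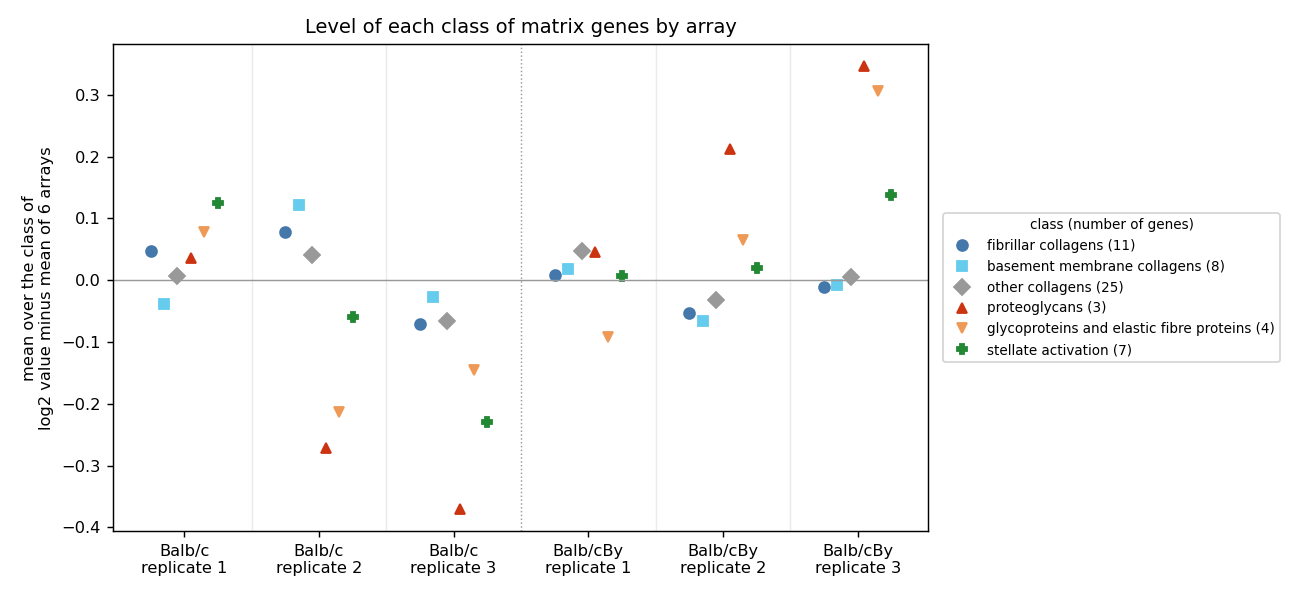
Mean level of 6 classes of matrix genes (vertical axis, log2 value minus the gene's mean over 6 arrays) in each array (horizontal axis); numbers in the legend are genes per class. Proteoglycans run from -0.37 in Balb/c replicate 3 to 0.35 in Balb/cBy replicate 3, and the 3 collagen classes stay nearer to 0.

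Genes that make, cut, sense or regulate the matrix were read in the same fit. Of 22 measured genes of collagen processing, 15 had a difference above 0 and 0 passed, with a median of 0.05. P4ha1, a catalytic subunit of prolyl 4-hydroxylase, which stabilises the triple helix, was measured at 9.29, 8.95 and 8.68 in Balb/c and at 9.12, 9.75 and 10.06 in Balb/cBy. Its groups overlapped and the difference was 0.68 (SE 0.24), while P3h2, a prolyl 3-hydroxylase, differed by 0.24 (SE 0.11; 0.14 when Balb/cBy replicate 3 was left out). Of 24 measured genes of matrix degradation, 18 had a difference above 0 and 0 passed, with a median of 0.05. The macrophage elastase Mmp12 was measured at 7.51, 7.45 and 7.67 in Balb/c and at 7.81, 7.92 and 7.97 in Balb/cBy, without overlap and with a difference of 0.36 (SE 0.10). The inhibitor Timp3 differed by 0.38 (SE 0.15).

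Of 25 genes of TGF-beta and PDGF signalling, 18 had a difference above 0 and 0 passed, with a median of 0.09. Thrombospondin 1, Thbs1, which can activate latent TGF-beta, was measured at 7.605, 7.68 and 7.601 in Balb/c and at 7.73, 8.57 and 8.19 in Balb/cBy. Its groups did not overlap, with a difference of 0.54 (SE 0.19), and Tgfbi, a matrix protein induced by TGF-beta, differed by 0.42 (SE 0.21). Thbs1 was at 0.33 on dropping Balb/cBy replicate 2, and Tgfbi at 0.23 on dropping Balb/c replicate 3. Of 8 measured collagen receptors, 6 had a difference above 0 and 0 passed, with a median of 0.13. The discoidin receptor Ddr2, a kinase that binds fibrillar collagen, was measured at 8.28, 8.44 and 8.30 in Balb/c and at 8.46, 8.64 and 8.62 in Balb/cBy, without overlap and with a difference of 0.24 (SE 0.10). The inhibitory receptor Lair1 differed by 0.24 (SE 0.12).

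Markers of the cells that could hold these transcripts moved with some of the same arrays. Of 11 measured stellate cell markers, 8 had a difference above 0 and 0 passed, with a median of 0.16. Their mean level lay between -0.26 and 0.19 in Balb/c and between -0.15 and 0.26 in Balb/cBy, lowest in Balb/c replicate 3 and highest in Balb/cBy replicate 3. The same extremes held for the proteoglycans, the 58 matrix genes together, collagen processing, TGF-beta and PDGF signalling and portal fibroblast markers, among others. For replicate 1 the stellate cell markers and the proteoglycans parted. The Balb/c liver stood at 0.19 and the Balb/cBy liver at -0.15, against 0.04 and 0.05 for the proteoglycans. Rgs5 differed by 0.52 (SE 0.22) and Ecm1 by 0.44 (SE 0.23), and they were at 0.32 on dropping Balb/c replicate 2 (Rgs5) and at 0.24 on dropping Balb/c replicate 3 (Ecm1). Of 7 measured portal fibroblast markers, 5 had a difference above 0 and 0 passed, with a median of 0.07, and their mean level lay between -0.13 and -0.0043 in Balb/c and between 0.01 and 0.13 in Balb/cBy. Dermatopontin, Dpt, a decorin-binding protein of that list, was measured at 8.99, 8.72 and 8.68 in Balb/c and at 9.29, 9.15 and 9.62 in Balb/cBy, without overlap, with a difference of 0.56 (SE 0.15), and Gsn differed by 0.25 (SE 0.17; 0.11 when Balb/cBy replicate 3 was left out). Other members of both lists went the other way. The 3 stellate cell markers below 0 were Ngfr and Pth1r, at -0.17 each, and Vipr1, at -0.07. The 2 portal fibroblast markers below 0 were Thy1, at -0.08, and Gli1, at -0.07. The part of these cell types in the differences of Lum and Dcn was not tested.

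Of 12 macrophage markers 8 had a difference above 0, with a median of 0.12, and their mean level lay between -0.44 and 0.24 in Balb/c, lowest in Balb/c replicate 3, and between -0.14 and 0.16 in Balb/cBy. Gpnmb differed by 0.36 (SE 0.10) and Vsig4 by 0.41 (SE 0.16; 0.26 when Balb/c replicate 3 was left out). The 4 macrophage markers below 0 were Adgre1, at -0.37, Marco, at -0.24, Timd4, at -0.09, and Csf1r, at -0.05. Of 6 mesothelial markers 0 had a difference above 0, with a median of -0.15, and their mean level was 0.34 in Balb/c replicate 1 and between -0.15 and -0.04 in the other arrays. Upk3b differed by -0.32 (SE 0.14) and Upk1b by -0.23 (SE 0.15), or by -0.18 and -0.08 on dropping Balb/c replicate 1. Of 8 smooth muscle markers 4 had a difference above 0, with a median of 0.0083, and a mean level between -0.04 and 0.04 in Balb/c and between -0.07 and 0.06 in Balb/cBy, with Smtn at 0.14 (SE 0.11) and Cnn1 at -0.12 (SE 0.12), or 0.07 and -0.02 on dropping Balb/cBy replicate 2. Endothelial markers (5 of 12 above 0, median -0.02), cholangiocyte markers (2 of 6, median -0.06), adipocyte markers (3 of 5, median 0.07) and hepatocyte markers (5 of 9, median 0.02) completed the lists, and 0 members of any of these 7 lists passed. In these last 4 lists the smallest p belonged to Fcgr2b (-0.30) and Kdr (-0.23), to Muc1 (0.18) and Cftr (-0.16), to Adipoq (0.29) and Retn (0.34), and to Serpina1a (0.55) and Hnf4a (0.17). Single arrays moved each of these 8: Fcgr2b was at -0.18 on dropping Balb/c replicate 1, Kdr at -0.09 on dropping Balb/cBy replicate 1, and Muc1 at 0.11 on dropping Balb/c replicate 3. Cftr was at -0.08 and Hnf4a at 0.06 on dropping Balb/c replicate 2, Adipoq at 0.17 and Serpina1a at 0.32 on dropping Balb/cBy replicate 2, and Retn at 0.11 on dropping Balb/cBy replicate 3. Other members went against the named ones in the endothelial, adipocyte and hepatocyte lists. The 5 endothelial markers above 0 were Lyve1 (0.30), Cdh5 (0.11), Pecam1 (0.08), Clec4g (0.06) and Stab2 (0.03). Below 0 lay the adipocyte markers Plin1 (-0.045) and Lep (-0.04). So did the hepatocyte markers Apob and Ttr (-0.04 each), Alb (-0.02) and Apoa1 (-0.0046). The part of these cell types in the differences was not tested.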

How the data were processed

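Liver RNA of 6 mice was hybridised to 1-colour Affymetrix arrays from 500 ng of total RNA, per the labels' protocols. Each probe set has 1 deposited log2 value an array, which the authors obtained with RMA according to the submitters' processing notes. That the scale is log2 follows from the range of the values. For RMA no version was found, and its genome build is not given in the sources used here. Of 41345 probe sets, 23521 carried 1 gene symbol in GEO's platform annotation, 1814 several and 16010 were unnamed here. The probe set with the highest mean was kept per gene, with no filter on low values, so all 58 members were tested. Their symbols were all current in the reference table.

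Balb/cBy was compared with Balb/c by lmFit and eBayes of limma 3.58.1 (R 4.3.3), without covariates, with Benjamini-Hochberg adjustment over 22180 genes at 0.05. The code was tested on simulated data. Exact permutation tests were two-sided. Members, classes and lists were chosen with earlier results of these data known. Named genes were Lum, Dcn, Col1a1, Col1a2, Col3a1, Col4a1, Acta2 and Timp1, members without overlap of the groups, and the 2 with the smallest p in each class or list; others named were chosen after their values were seen. Col15a1 and Col18a1 were counted with the basement membrane collagens, or, as an alternative, with the others. Further alternatives were the replicate block, filters on low values, recentring, quantile normalization done again, other probe set rules, other variance models, array weights, an adjusted p of 0.1 and leaving out each array.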

Additional observations from a re-analysis of the deposited data

How the results depend on the processing

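The labels state no pairing of arrays by replicate number. The deviations of same-numbered arrays from their group means correlated at -0.323, -0.201 and -0.228. Deviations within a group are tied to each other through its mean, so these correlations cannot show whether mice were paired. With the replicate block, 0 genes passed, and 0 matrix genes passed under any alternative, an adjusted p of 0.1 included. Over all genes 12 passed with array weights and 0 to 3 without single arrays (3 when Balb/cBy replicate 1 was left out, 2 for Balb/c replicate 3). Without single arrays, 13 to 23 matrix genes had groups without overlap, 9 to 16 of them with Balb/cBy higher and 2 to 13 lower. The highest counts came on dropping Balb/cBy replicate 1 (23 in all, 13 lower, where 12.8% of all genes were higher and 14.1% lower) or Balb/c replicate 2 (16 higher, against 8.36% of all genes). On dropping Balb/c replicate 3, 10 were lower, against 10.1% of all genes. Groups without overlap and with lower values were 4 with recentred arrays, against 3.27% of all genes, and 1 among the 40 members at or above the median gene, against 2.75% of all genes so filtered. That filter gave the other collagens a median of 0.034. Without single arrays the medians ran from -0.0912 to -0.0048 for fibrillar collagens, -0.0352 to 0.0274 for other collagens, -0.052 to 0.0346 for all 58 genes, -0.10 to -0.03 for basement membrane collagens, 0.05 to 0.21 for glycoproteins and elastic fibre proteins, 0.06 to 0.20 for stellate activation and 0.38 to 0.61 for proteoglycans. Of genes near 0, Col1a1 was at -0.0347 after quantile normalization done again, -0.0206 with array weights and -0.0912 to 0.0927 without single arrays. Col1a2 was at -0.0135 and -0.0559 to 0.0891, and Col4a1 at -0.0179 and -0.0594 to 0.12, in the first and last of these settings. Without single arrays Col3a1 ran from -0.11 to 0.057 and Timp1 from -0.24 to 0.11. Col5a1 was at -0.14 with the probe set of largest variance. For these turns the cause was not tested, except that Col5a1 was then read by its other probe set. Counts of differences above 0 among the 14 genes that are not collagens (10 to 13), the 44 collagens (14 to 23) and the 6 type VI genes (4 to 6) were an alternative chosen after seeing the data.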
